A study of Mus musculus with 4 samples.

Results

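Genes of antibodies and of the plasma cells that secrete them were followed across 4 microarrays of sorted CCR6+ group 3 innate lymphoid cells (ILC3). The genes are Igha and Ighm, Jchain, Xbp1, Prdm1, Sdc1, Mzb1 and Tnfrsf17. They are 8 of 19938 genes named by the array annotation, and all 8 had a probe set naming them alone. Where a gene had several such probe sets, the one with the highest mean over the 4 arrays was used. The genes were chosen by their values on array 3, where Igha and Jchain had been seen to be high. The levels of these 2 genes on array 3 are therefore given as a description without a test. The cells were taken from mesenteric lymph nodes of C57BL/6 mice that were naive, and their total RNA was labelled with biotin. Cells had been sorted as CD127+ CD90.2+ CCR6+ ST2-, and the labels give no B cell or plasma cell marker in this gate, nor the age of the mice. The 4 samples form a single group, numbered 1 to 4, with no treatment and no second cell type. Whether each sample had its own animal, pool or sort is not stated in the labels. The spread between samples, on which the SDs rest, may therefore be partly technical.

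Antibodies are made by B lymphocytes and, in bulk, by plasma cells, while innate lymphoid cells carry no rearranged antigen receptor. In the gut the main product is IgA, whose heavy chain constant region is encoded by Igha. Units of IgA or IgM are joined into polymers by the joining chain, the product of Jchain, and carried across the epithelium in that form. Plasma cell fate is set by BLIMP-1, the product of Prdm1, and the antibody output depends on XBP1, a transcription factor of the unfolded protein response.

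The 2 promoter windows below belong to the joining chain gene, whose level differed between arrays, and to Xbp1, whose level did not differ by more than 0.21 log2 units. Each runs from 250 bases before to 50 bases after the gene start in RefSeq's GRCm38.p6 assembly and is written 5′ to 3′ on the gene's strand. Capitals mark E boxes (CANNTG), the sites of basic helix-loop-helix factors.
Jchain (chr5:88527848-88528147, minus strand): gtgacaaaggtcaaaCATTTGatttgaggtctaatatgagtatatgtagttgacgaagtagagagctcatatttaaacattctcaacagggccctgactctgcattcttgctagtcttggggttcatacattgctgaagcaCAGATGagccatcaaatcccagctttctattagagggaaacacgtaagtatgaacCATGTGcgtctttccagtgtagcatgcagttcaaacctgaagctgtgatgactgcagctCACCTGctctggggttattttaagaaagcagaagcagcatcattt
Xbp1 (chr11:5520391-5520690, plus strand): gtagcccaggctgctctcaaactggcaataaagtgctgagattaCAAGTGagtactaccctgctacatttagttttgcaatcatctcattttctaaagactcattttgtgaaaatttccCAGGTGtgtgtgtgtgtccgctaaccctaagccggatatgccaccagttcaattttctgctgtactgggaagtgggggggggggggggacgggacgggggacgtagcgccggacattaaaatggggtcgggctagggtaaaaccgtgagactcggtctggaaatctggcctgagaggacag
Promoter windows were found for 5 of the 8 genes, these and those of Prdm1, Sdc1 and Tnfrsf17. Igha, Ighm and Mzb1 had no entry. The octamer ATGCAAAT, known from immunoglobulin promoters, was searched on both strands with the E box and with GAGGAA, the core bound by PU.1, and matches of different motifs did not overlap in the 5 windows. The octamer occurred in 0 of the 5 windows and in 1.74% of 32851 promoter windows of the genome. The Jchain window held 4 E boxes and the Xbp1 window 2, and 72.3% of all windows held at least 1. GAGGAA or its complement stood once each in the windows of Prdm1, Sdc1 and Tnfrsf17, and in 28.3% of all windows. These matches describe letters in a window and not binding.

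The authors deposited a log2 level for each probe set, so a difference of 1 is a 2-fold difference. Probe sets bind with different strength, and levels were therefore set against background and not between genes. Background was 1237 receptor genes of smell, pheromone and taste, whose median lay between 4.24 and 4.27 on the 4 arrays and whose 95th percentile lay between 5.73 and 5.84. A gene was called above background when the rank of its mean among these genes gave a one-sided p below 0.05 after Benjamini-Hochberg adjustment over all named genes. The lowest mean called was 6.37. Of 14 genes of other organs, 5 were also called, among them Krt10 of the skin at 7.77 ± 1.03, Ckm of muscle at 7.33 ± 0.14 and Apoa1 of liver at 7.24 ± 0.11 (SD, n = 4, as for all means that follow), so a call alone does not show that the sorted cells express a gene. All 11 ILC3 markers measured were called, against 46.2% of all named genes. The 11 include Il7r, which encodes CD127, at 12.56 ± 0.06 and Thy1, which encodes CD90, at 11.36 ± 0.15.

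Of the 8 genes, 5 were above background, against 46.2% of all named genes, so the share called is no mark of these genes. Those called were Igha, Ighm, Jchain, Xbp1 and Mzb1. Without array 3, on which Igha and Jchain had been chosen, the same 5 were called, against 44.3% of all named genes. Prdm1, Sdc1 and Tnfrsf17 were not called in either case, which does not show that they are absent. The arrays are mixtures of all cells in the sorted samples, in which fewer cells of a type and less RNA per cell cannot be told apart.

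**Figure D1:**
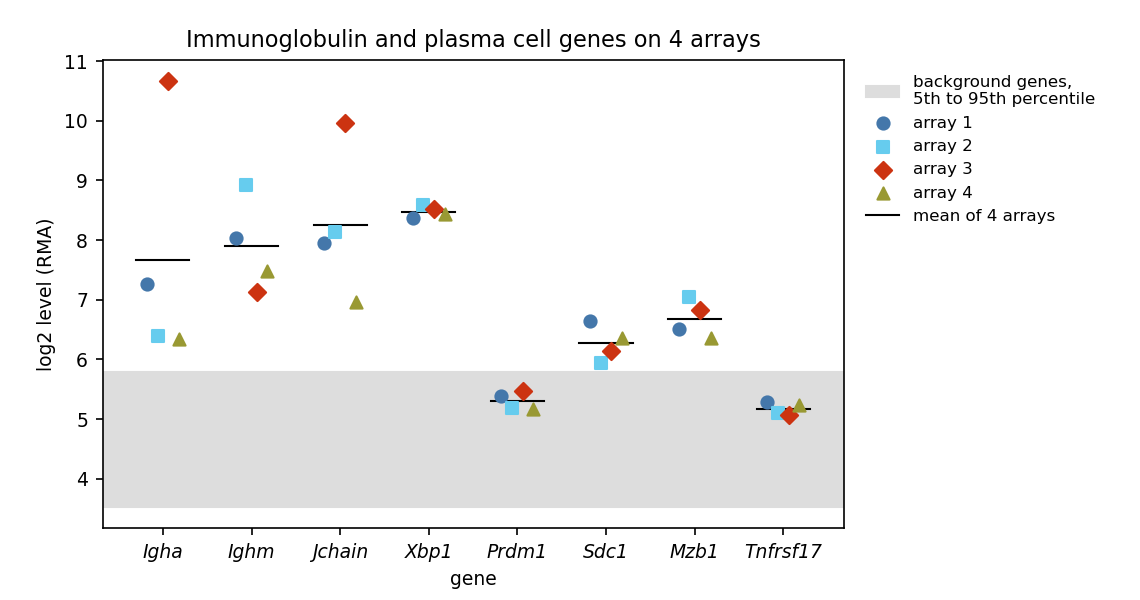
Log2 level of each of the 8 genes (x axis, genes; y axis, log2 level) on arrays 1 to 4, with the mean of the 4 arrays as a black line and the 5th to 95th percentile of background genes, averaged over arrays, as a grey band. Igha and Jchain stand highest on array 3, at 10.66 and 9.96, while Xbp1 stays between 8.37 and 8.59 and Prdm1 and Tnfrsf17 lie inside the band.

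Igha was at 10.66 on array 3, against 7.27, 6.39 and 6.33 on arrays 1, 2 and 4. Array 3 stood apart from the other arrays, which differed by less than 1 log2 unit. The difference of array 3 from the mean of the other arrays was 4.00 log2 units, or 16.0-fold. No other gene named alone and above background had a larger one, and 2 had a larger SD than the 2.05 of Igha. A second probe set for Igha was also highest on array 3 and next on array 1, but equal on arrays 2 and 4. It was at 8.94 on array 3, against 6.68, 6.21 and 6.21 on arrays 1, 2 and 4. A further 4 probe sets name Igha among several genes and were not assigned to it. On arrays 1, 2 and 4 alone Igha averaged 6.66, with an adjusted detection p of 0.0354. Igha lay above the 95th percentile of background on all 4 arrays.

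Jchain, the joining chain of IgA and IgM, was at 9.96 on array 3, against 7.96, 8.14 and 6.96 on arrays 1, 2 and 4. It was thus highest on array 3 like Igha, but array 4 was lower than arrays 1 and 2 by about 1 log2 unit. The difference of array 3 from the other arrays was 2.28 log2 units, or 4.85-fold, and 7 genes above background had a larger one. On arrays 1, 2 and 4 Jchain averaged 7.68, with an adjusted detection p of 0.0166, so its call does not rest on array 3.

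Ighm, the constant region of IgM, did not share this order on the probe set used. It was at 7.12 on array 3, against 8.04, 8.92 and 7.49 on arrays 1, 2 and 4, and so lowest on array 3. The difference was -1.02 log2 units. The 3 probe sets that name Ighm alone disagreed. The second was at 7.06 on array 3, against 7.00, 6.64 and 6.48 on arrays 1, 2 and 4, and the third at 5.90 on array 3, against 6.47, 3.76 and 3.96. These 2 probe sets were both higher on arrays 1 and 3 than on arrays 2 and 4. With the mean over the 3 probe sets the difference of array 3 turned to 0.17, so no direction is given for Ighm. Its detection held on each leave-one-out mean, with adjusted p between 0.0146 and 0.0185.

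Other immunoglobulin genes divided in the same way. Of 11 immunoglobulin genes named alone, Igha and Ighm included, 5 were above background, against 46.2% of all named genes. Without array 3 it was 3 of 11, against 44.3%, so neither count is a mark of these genes. Igkv9-120, a kappa light chain variable gene, was at 10.29 on array 3, against 7.26, 5.85 and 5.98 on arrays 1, 2 and 4. Igkv19-93 was at 9.16 on array 3, against 6.33, 7.18 and 6.89, although its second probe set lay between 5.78 and 5.94 on all arrays. Igkv10-96 was at 7.84 on array 3, against 6.76, 5.77 and 5.64 on arrays 1, 2 and 4. All 3 were highest on array 3, and Igkv9-120 and Igkv10-96 were not called without it.

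Not every antibody gene was highest on array 3. Over the 11 genes, 4 were highest on array 1, 3 on array 2, 4 on array 3 and 0 on array 4, and the median difference of array 3 from the other arrays was 0.13 log2 units. Igkv8-30 was at 4.85 on array 3, against 4.91, 6.93 and 4.53 on arrays 1, 2 and 4. Igkv5-43, chosen after its values were seen, was at 4.47 on array 3, against 7.49, 5.41 and 3.95, and so highest on array 1. Neither was called. Ighg3, a constant region of IgG that was also chosen after its values were seen, stayed between 4.36 and 4.46, inside the background range. A further 14 probe sets carried several immunoglobulin names and were not assigned to a gene. Of these, 7 were highest on array 1, 1 on array 2, 5 on array 3 and 1 on array 4, and 3 were over 1 log2 unit higher on array 3 than on the mean of the others. Their median difference was 0.73 log2 units, and in 9 of the 14 arrays 1 and 3 both lay above arrays 2 and 4. The largest difference, 5.80 log2 units and larger than that of Igha, was of a probe set at 10.80 on array 3, against 5.97, 4.61 and 4.42 on arrays 1, 2 and 4. Another was at 6.93 on array 3, against 4.28, 4.43 and 10.77 on arrays 1, 2 and 4, and so highest on array 4. Variable genes resemble other variable genes in sequence, and constant regions other constant regions. A signal may therefore belong to a relative of the gene named.

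**Figure D2:**
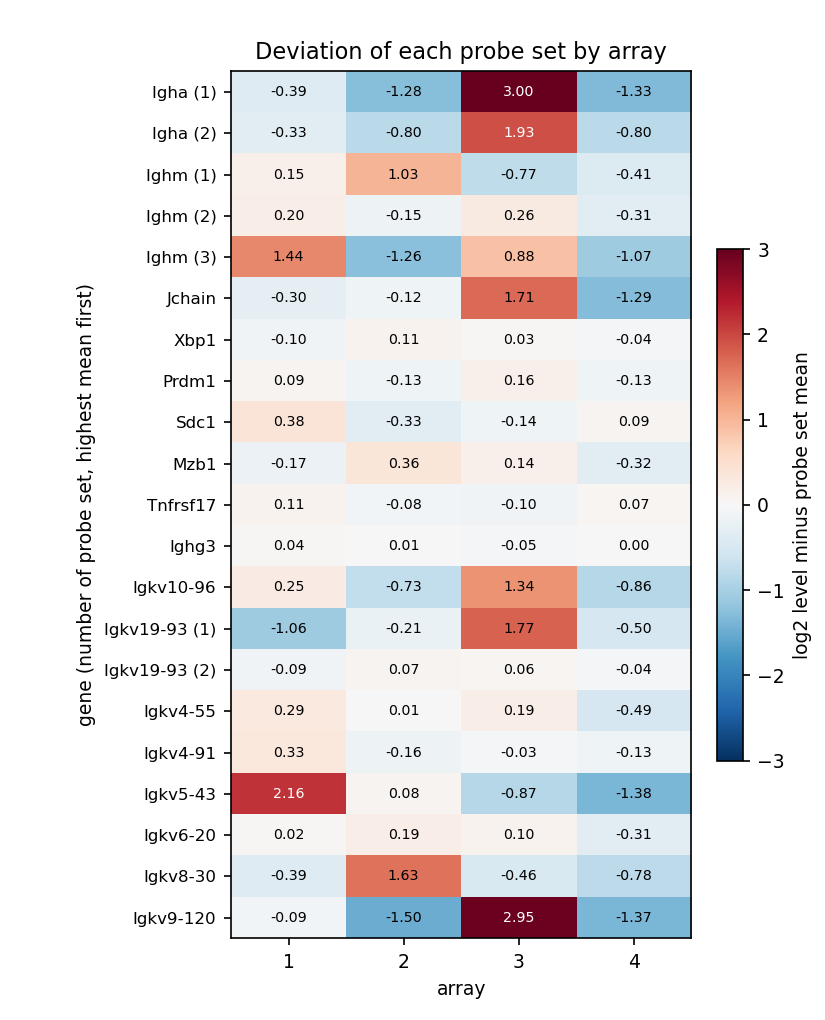
Deviation of each singly named probe set of the 8 genes and of the other immunoglobulin genes (rows) from its own mean over the 4 arrays (columns), in log2 units, with the value printed in each cell and red for higher. Both Igha probe sets, Jchain, Igkv9-120, Igkv10-96 and the first Igkv19-93 probe set are highest on array 3, while the 3 Ighm probe sets differ in order and Igkv5-43 and Igkv8-30 are highest on arrays 1 and 2.

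The genes of the plasma cell programme are described in turn. Their spread is not compared with that of Igha, which was chosen for its level on array 3. Xbp1 was at 8.51 on array 3, against 8.37, 8.59 and 8.44 on arrays 1, 2 and 4, a difference of 0.05 log2 units, which turned to -0.10 when arrays were scaled to housekeeping genes. The SD over the 4 arrays was 0.09, below the median of 0.168 for genes above background, and the adjusted detection p was 0.0143. The SDs of Mzb1, at 0.31, and of Sdc1, at 0.30, were above that median. Xbp1 serves secretion and stress responses in many cell types. These values do not tell its spliced from its unspliced RNA.

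Mzb1, an endoplasmic reticulum protein that helps IgM assembly in B cells, was at 6.83 on array 3, against 6.51, 7.04 and 6.36 on arrays 1, 2 and 4. Array 3 lay between the other arrays. Its adjusted detection p was 0.0333, with a mean of 6.68 ± 0.31.

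Sdc1, which encodes the plasma cell surface proteoglycan CD138, was at 6.13 on array 3, against 6.65, 5.95 and 6.37 on arrays 1, 2 and 4. Array 3 again lay between the others. Its adjusted detection p of 0.0523 just missed the threshold. It was called without array 2, with an adjusted p of 0.0441, and by limma's test against the 95th percentile of background, with an adjusted p of 0.00712.

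Prdm1, which encodes the repressor BLIMP-1, was at 5.46 on array 3, against 5.39, 5.18 and 5.17 on arrays 1, 2 and 4. The arrays stood in the same order as for Igha, with array 3 highest by 0.07 log2 units. Tnfrsf17, which encodes BCMA, the receptor through which APRIL keeps plasma cells alive, was at 5.07 on array 3, against 5.28, 5.09 and 5.24 on arrays 1, 2 and 4. It was lowest on array 3, although the 4 values lay within 0.21 log2 units. The adjusted detection p was 0.162 for Prdm1 and 0.197 for Tnfrsf17, and both lay below the 95th percentile of background on all 4 arrays.

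Among the 5 of the 8 genes above background, 2 were over 1 log2 unit higher on array 3 than on the mean of the other arrays, against 1.1% of the 9203 genes above background. They are Igha and Jchain, for which the list was made, so nothing is read from that share. The other 6 genes differed by between -1.02 and 0.22 log2 units, and the median over all 8 was 0.12, against -0.01 for genes above background. As the mirror of this comparison, 41, 34 and 26 genes were over 1 log2 unit higher on array 1, 2 or 4 than on the mean of the remaining arrays, against 101 on array 3.

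Further regulators and surface proteins of plasma cells were mostly above background. The median SD of those measured was 0.19, against 0.168 for all genes above background. Of 18 measured, 16 were above background, on all arrays as without array 3, against 46.2% and 44.3% of all named genes. Several of the 16 are also made by other lymphocytes, so the share called is no mark of plasma cells. Cxcr4, which holds plasma cells in the marrow, was at 11.33 ± 0.09, the integrin chain Itga4 at 10.32 ± 0.18, Mcl1, a survival factor, at 10.25 ± 0.12 and Zbtb20 at 9.38 ± 0.20. The 16 called genes had a median array 3 difference of 0.09 log2 units, and 0 of them exceeded 1. Pou2af1, the coactivator of octamer-binding factors, was at 9.62 on array 3, against 8.98, 8.85 and 9.31 on arrays 1, 2 and 4. Irf4, a factor needed for plasma cell formation, was not called, and was at 7.21 on array 3, against 5.98, 5.55 and 5.39 on arrays 1, 2 and 4. Its arrays stood in the same order as those of Igha, and it was the only measured gene of this list over 1 log2 unit higher on array 3. Slamf7, chosen after its values were seen, was at 8.01 on array 3, against 7.21, 7.25 and 7.48. Eaf2 was not called, at 5.12 ± 0.08. Cd38 and Ly6c2 are not analysed here.

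Genes of protein folding and export from the endoplasmic reticulum, many of them induced by XBP1, were at even levels. Of 40 measured, 38 were above background, against 46.2% of all named genes. The median array 3 difference of the 38 was 0.03 log2 units, with 20 of them higher on array 3 than on the mean of the others. Of all 9203 genes above background, 4423 were higher on array 3. The chaperone Hsp90b1 was at 11.63 ± 0.04, Spcs1 and Sec11c of the signal peptidase at 11.43 ± 0.09 and 11.29 ± 0.10, Dnajc3 at 10.87 ± 0.10, Canx at 10.67 ± 0.08 and Sec61b of the translocation channel at 10.65 ± 0.16. Fkbp11 and Derl3, which plasma cells carry at high levels, were not called, at 5.72 ± 0.12 and 6.00 ± 0.17. The 2 genes of the list that differed most, chosen after their values were seen, were Srpr, at 7.41 on array 3, against 9.05, 8.36 and 8.70, and Dnajb9, at 9.96 on array 3, against 9.62, 9.45 and 8.72 on arrays 1, 2 and 4.

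Genes of the germinal centre and of the supply and transport of IgA were above background in about the share seen among all named genes. In the germinal centre and class switch list 4 of 9 measured genes were called, among them the repressor Bcl6 at 8.78 ± 0.41 and Fas at 6.53 ± 0.29. The proliferation gene Mki67 was not called, at 6.09 ± 0.20, nor was Ung, an enzyme of class switching, at 6.26 ± 0.06. Of 10 measured genes of BAFF, APRIL and IgA transport, 5 were called. Tnfrsf13c, through which B cells receive BAFF, was at 9.22 on array 3, against 9.47, 8.20 and 8.21 on arrays 1, 2 and 4, and so high on arrays 1 and 3. Tgfb1, whose product directs switching to IgA, was at 8.71 ± 0.30. Pigr, the epithelial carrier of polymeric IgA, was not called, at 5.52 ± 0.10.

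B cell markers were high on arrays 1 and 3, an order that only part of the antibody genes shared. Of 19 measured, 18 were above background, and 17 without array 3, against 46.2% and 44.3% of all named genes. The mean level of the 19 was 8.71 on array 3, against 8.44, 7.58 and 7.45 on arrays 1, 2 and 4. Of the 18 called, 16 had arrays 1 and 3 each above arrays 2 and 4, against 16.4% of all genes above background, an order that was known before these counts were made. On array 3, 9 of the 19 were over 1 log2 unit higher than on the mean of the others. The share among all genes above background was 1.1%. Cd79a, a signalling chain of the B cell receptor, was at 9.43 on array 3, against 9.59, 8.33 and 8.03 on arrays 1, 2 and 4. Cd79b was at 10.38 on array 3, against 10.21, 9.58 and 9.19. Fcrla was not called, at 5.96 ± 0.38.

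The difference of array 3 from array 1 is given as a description only, because Igha and Jchain had been chosen by their array 3 levels. The mean of the B cell markers was 0.27 log2 units higher on array 3 than on array 1, and the median of their differences was also 0.27. Igha was 3.39 higher on array 3 than on array 1, Igkv9-120 3.03, Igkv19-93 2.84 and Jchain 2.01, all genes that are high on array 3. Over the 11 immunoglobulin genes the mean of this difference was 0.53 and the median -0.07, with Igkv10-96 at 1.08, Ighm at -0.92 and Igkv5-43 at -3.02. Among the B cell markers, Spib was 1.28 higher on array 3 than on array 1, and Fcrl1 1.27, both chosen after their values were seen. On the probe sets used, Igha and Prdm1 of the 8 genes had both arrays 1 and 3 above both others, and the remaining 6 did not. The other Ighm probe sets had this order as well, and Prdm1 was not above background. Of the 5 genes above background 1, Igha, had it, against 16.4% of all genes above background, so nothing is read from the count. The part of B cells in the levels of these genes was not tested.

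**Figure D3:**
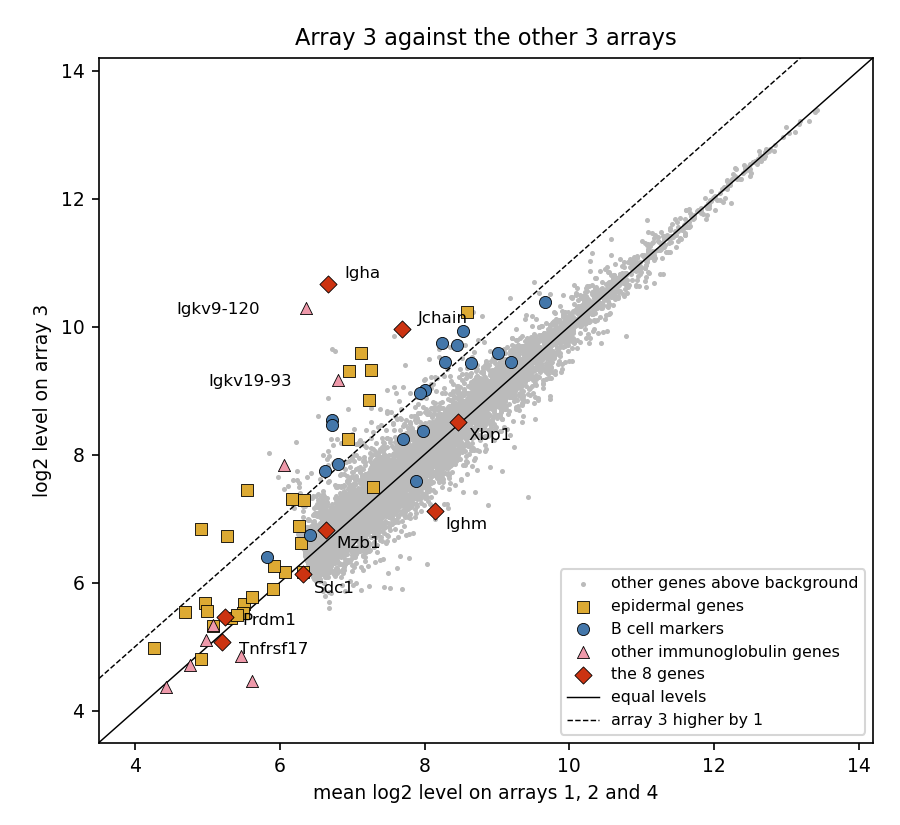
Log2 level on array 3 (y axis) against the mean log2 level on arrays 1, 2 and 4 (x axis). Grey points are genes above background, and coloured points are the 8 genes, other immunoglobulin genes, B cell markers and epidermal genes, drawn whether or not they were above background. Igha at 10.66 and Jchain at 9.96 lie over 1 log2 unit above the line of equal levels with several epidermal genes and B cell markers, and Xbp1 lies on it.

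Genes of the epidermis were also higher on array 3, and this list was made after Asprv1, Sprr1a and Krt10 had been seen among the genes that differed there. Of 29 epidermal genes measured, 11 were above background, and 7 without array 3, against 46.2% and 44.3% of all named genes. In 27 of the 29 the level on array 3 was above the mean of the other arrays, and the median difference was 0.61 log2 units. Among all 9203 genes above background, 4423 were higher on array 3, and 1.1% were so by over 1 log2 unit. Krt10, a keratin of the outer epidermis, was at 9.32 on array 3, against 7.14, 7.34 and 7.29 on arrays 1, 2 and 4. Krt1, its partner, was at 8.85 on array 3, against 6.97, 7.50 and 7.24. Ly6d, which B cells also carry, was at 10.23 on array 3, against 9.71, 8.34 and 7.70. Of the 29 measured, 10 were over 1 log2 unit higher on array 3, and 4 of the 11 called, among them Krt5 at 7.31 on array 3, against 6.12, 6.18 and 6.23, were not called without array 3. The basal keratin Krt14 was not called, at 5.55 ± 0.08. The mean over the list was 6.77 on array 3, against 5.92, 6.01 and 5.93 on arrays 1, 2 and 4. The part of epidermal material in the levels of Igha and Jchain was not tested.

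Markers of other cells had medians closer to 0. T cell markers had a median array 3 difference of 0.22 log2 units, and 10 of 11 were higher there than on the mean of the others. Of all 9203 genes above background, 4423 were higher there. The mean of the T cell markers was 7.56 on array 3, against 7.21, 7.19 and 7.20 on arrays 1, 2 and 4. Of the 11, 9 were above background, against 46.2% of all named genes. Cd3g was at 9.51 on array 3, against 8.59, 8.47 and 8.52. NK and ILC1 markers had a median array 3 difference of -0.03 log2 units, dendritic cell markers one of -0.00046, monocyte and macrophage markers one of 0.10 and stroma and epithelium markers one of 0.03. Single genes of these lists were higher on array 3, chosen here after their values were seen. The differences were 1.18 for Ccl5, 1.07 for Cd8b1, 0.91 for Adgre1, which was not called, 0.89 for Ccl22 and 0.88 for Ccl17. ILC3 markers had a median of -0.07, and their mean was 10.53 on array 3, against 10.51, 10.63 and 10.58 on arrays 1, 2 and 4.

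**Figure D4:**
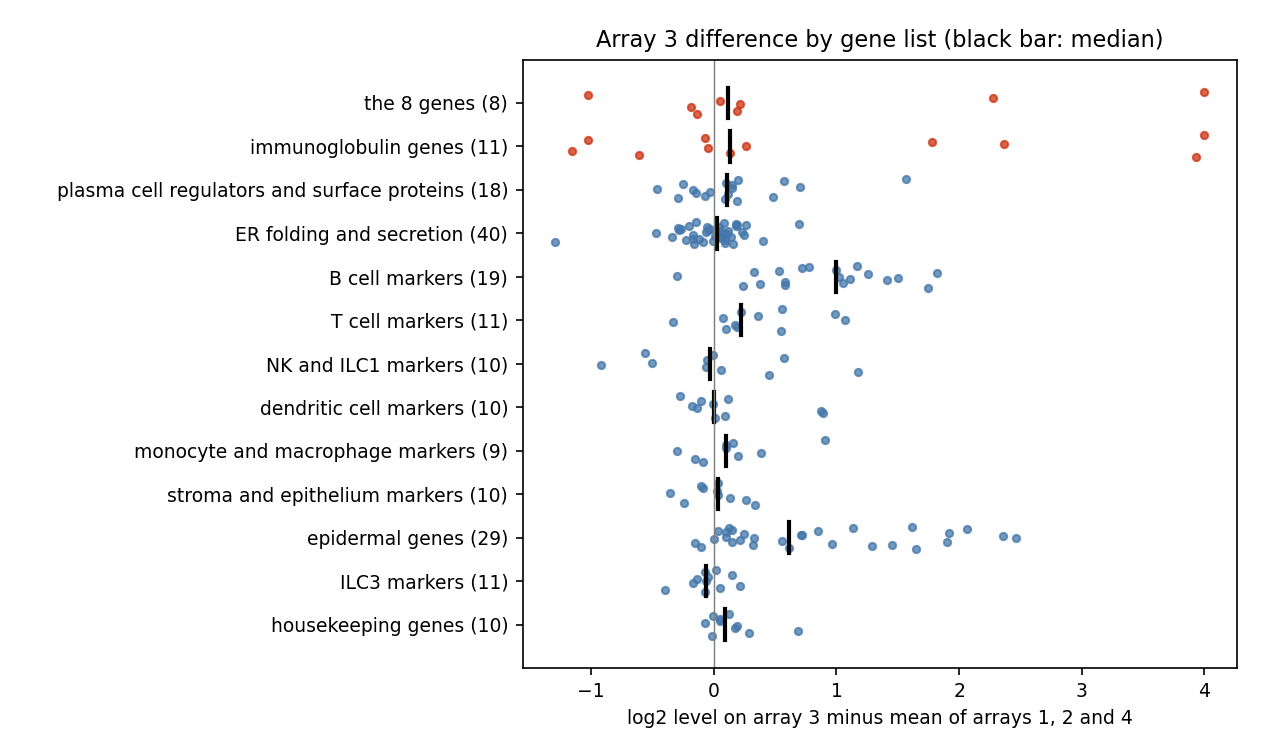
Log2 level on array 3 minus the mean of arrays 1, 2 and 4 (x axis) for every measured gene of 13 lists (rows, number of genes in brackets), with a black bar at the median of each list. B cell markers, with a median of 0.99, and epidermal genes, with 0.61, lie to the right of 0, while 4 immunoglobulin genes exceed 1 and genes of folding and secretion lie about 0.

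The genes whose profile over the 4 arrays was most like that of Igha were sought among the 9202 other genes above background. Likeness was the root mean square difference of the deviations from each gene's own mean. Igkv9-120 was nearest, at 0.19 log2 units. It was followed by Asprv1, a protease of the epidermis, at 0.73, Tlr1, a Toll-like receptor, at 0.80, Sprr1a of the epidermal envelope at 0.87 and Jchain at 0.87. Nearest to Jchain were Mir7-1 at 0.23, Spib, a transcription factor of B cells and plasmacytoid dendritic cells, at 0.36, Polr3e at 0.39, Trmt5 at 0.41 and Asprv1 at 0.42. Igkv9-120 and Mir7-1 were not above background without array 3, with adjusted p of 0.0524 and 0.0823. The search used the array 3 values by which Igha and Jchain had been chosen, and is a description only. With 4 arrays, and 1 of them setting the profile, many genes can come near by their level on array 3 alone.

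The 10 genes above background with the largest array 3 difference held 4 of antibodies, which were Igha, Igkv9-120 at 3.93 log2 units, Igkv19-93 at 2.36 and Jchain. Igha and Jchain had been chosen by this value, and Igkv9-120 was not above background without array 3, so nothing is read from the number of antibody genes. The others were Adck1 at 2.93, Mir202 at 2.84, Asprv1 at 2.46, Sprr1a at 2.36, I730030J21Rik at 2.27 and Tlr1 at 2.23. Adck1 was at 9.65 on array 3, against 7.79, 8.65 and 3.74 on arrays 1, 2 and 4, and so lowest on array 4.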

How the data were processed

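RNA of 4 samples of sorted CCR6+ ILC3 was measured on microarrays. The deposited log2 levels per probe set were made by the authors with RMA, per the submitters' processing notes, which corrects background, normalizes arrays and summarises probes. No source used here gives its version, the software or the genome build. No count of reads underlies the values, and the number of arrays limits precision. The table held 35556 probe sets, of which 21789 carry 1 gene symbol in GEO's platform annotation, 1621 carry several and were not named, and 12146 are not listed. Symbols of 21698 were updated by Entrez identifier through the RefSeq table of GRCm38.p6.

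The 8 genes, the gene lists and the tests were chosen with earlier results of these data known. The detection p was 1 plus the number of background genes at or above a gene's mean, divided by 1 plus their number, and could not fall below 0.000808. It was computed in Python 3.11.15, and limma 3.58.1 served as an alternative. The calculation was tested on simulated data, with 200 genes at each level. Genes 1, 2 and 4 log2 units above background were called in 10.0%, 44.5% and 100.0% of cases, and genes at background in 3.0%. A gene that was not called may therefore still be expressed at a low level. Genes were named by a rule that took the 8 genes, the 8 immunoglobulin genes highest on array 3, up to 6 called and 2 uncalled members per list with the highest means, the 5 nearest genes to Igha and Jchain, and the 10 largest array 3 differences. Any other gene was chosen after its values were seen. Alternatives were each array left out, other detection rules, scalings and probe set rules.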

Additional observations from a re-analysis of the deposited data

Results flagged for a closer look

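Gaps between 1 array and the other 3 were examined for 128 values. Chance alone sets 1 array apart in about 1 in 20 groups. Part of the values, such as Asprv1, Sprr1a and the epidermal mean, were chosen with their array 3 levels known. That rate therefore does not apply to them, and nothing is read from the number flagged. In 16 cases 1 array stood far from the others relative to the whole range. Array 3 was high for Asprv1 at 9.59, Sprr1a at 9.31, Krt10 at 9.32, Cd3g at 9.51, Adgre1 at 7.00, Fkbp11 at 5.90, Eaf2 at 5.23 and Hsp90b1 at 11.69, and for the means of the T cell markers at 7.56 and of the epidermal genes at 6.77. Array 3 was low for Pecam1 at 8.17 and Ckm at 7.12. The kappa variable gene Igkv8-30 was high on array 2 at 6.93, Ung on array 1 at 6.36 and Prm1 on array 4 at 6.15, and Pdgfra was low on array 4 at 5.67. Several of these genes spanned small ranges, and Fkbp11 and Pecam1 had the same value on the other 3 arrays, which the median polish of RMA can produce. Igha and Jchain did not meet this criterion.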

How the results depend on the processing

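No paired analysis was possible because the series has 1 group. Leaving out 1 array gave 8835 to 9570 genes and 5 to 6 of the 8 genes above background, and a median array 3 difference of the 8 genes between 0.04 and 0.14 log2 units. Demanding a level above every gene of other organs on every array left 983 genes and 0 of the 8, because Krt10 reached 9.32 on array 3. Without Krt10, a setting chosen after seeing the data, 4807 genes and 1 of the 8, Xbp1, passed. Limma's test called 10795 genes and 6 of the 8. The difference of Ighm turned to 0.17 with the mean over probe sets. Under all scalings and other settings run, Igha differed by 3.29 to 4.30 and Jchain by 1.83 to 2.50. The median of the 8 genes was -0.03 when scaled to housekeeping genes and -0.14 against the highest of the other arrays. Scaling to housekeeping genes moved the median difference of genes above background by -0.15.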
